A study of Mus musculus with 30 samples.

Results

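The comparison described here asks whether the mouse progenitor lines HPCLSK and HPC7 differed in how their RNA changed between cells carrying the mutant STAT3Y640F and cells carrying unmutated STAT3. For every gene, the log2 fold change of STAT3Y640F over STAT3 in HPC7 was subtracted from the same log2 fold change in HPCLSK. The result is called the line difference. A positive line difference means that the gene changed upwards more (or downwards less) in HPCLSK than in HPC7. The comparison rests on 12 of the 30 samples of the series, 3 RNA libraries in each of 4 groups, and on 13850 of 50686 listed genes that passed a filter on low counts.

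The groups were HPCLSK with STAT3Y640F, HPCLSK with STAT3, HPC7 with STAT3Y640F and HPC7 with STAT3. All carried a retroviral vector, and none was treated. The labels call the cells haematopoietic stem and progenitor cells and give strain C57BL/6N for HPCLSK and 129SV for the HPC7 RNA samples. The chromatin samples of HPC7 carry the label C57BL/6N, so the strain of HPC7 is not settled by the labels. The culture medium of both lines (IMDM) held serum and stem cell factor, and plates for HPCLSK were coated with agarose. Empty vector (dsRed) libraries, 3 per line, are quoted for their levels but did not enter the fit. The 3 libraries of a group are described as technical replicates, so the tests measure the spread between libraries and not between separately made cell lines. The file headers place the HPCLSK libraries in one sequencing run and the HPC7 libraries in another, so line, strain, run and any difference in transduction cannot be told apart. The 12 chromatin samples are not analysed here.

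STAT3 is a transcription factor that cytokine receptors of the interleukin-6 and granulocyte colony-stimulating factor families switch on through JAK kinases. Phosphorylated STAT3 pairs through its SH2 domain, enters the nucleus and binds DNA at palindromes of the form TTCNNNGAA. Residue 640 lies in that domain, and Y640F is a known activating change of human leukaemias and liver adenomas. Interferon-stimulated genes answer a related route, in which IRF9 and its partners bind the interferon-stimulated response element, whose core is GAAA, any 2 bases, and GAAA again. In blood progenitors STAT3 is known for driving survival genes, its own inhibitor Socs3 and myeloid differentiation.

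The promoter stretches printed here come from the RefSeq table for GRCm38.p6. Of the genes searched, only those with a match within 250 bases upstream of the annotated start are printed. For Stat3, Bcl3, Pim1, Csf1r, Il4ra, Junb, Egr3 and Nfil3 no TTCNNNGAA was found. For Mx2, Oas2, Oasl2, Ifit2 and Xaf1 no interferon element core was found. Any of these genes may lack a promoter in that table. In Ifitm3 and Cish the matches lay at or past the start. Capitals mark the matched motif, TTCNNNGAA in Socs3 and Il1r2 and the interferon element core on either strand in the others (TTTC repeats are its reverse complement).
Socs3 (chr11:117969492-117969540, minus strand): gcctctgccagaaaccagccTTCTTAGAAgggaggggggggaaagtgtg
Il1r2 (chr1:40085962-40086010, plus strand): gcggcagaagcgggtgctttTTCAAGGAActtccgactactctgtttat
Isg15 (chr4:156200855-156200916, minus strand): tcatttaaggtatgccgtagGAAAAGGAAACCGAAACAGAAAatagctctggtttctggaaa
Bst2 (chr8:71537567-71537622, minus strand): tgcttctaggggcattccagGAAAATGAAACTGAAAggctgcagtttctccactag
Ifit1 (chr19:34640765-34640833, plus strand): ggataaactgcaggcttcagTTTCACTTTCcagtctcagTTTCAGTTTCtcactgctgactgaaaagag
Rsad2 (chr12:26456543-26456592, minus strand): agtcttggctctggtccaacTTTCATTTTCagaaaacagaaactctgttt

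Socs3 and Il1r2 moved upwards with Y640F in both lines, while the other 4 genes carry the interferon element and are among those whose change was larger in HPC7. Isg15 held 3 overlapping matches, Ifit1 and Bst2 held 2 each, and Rsad2 held 1.

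Library totals ran from 9537258 to 21398768 counts in HPCLSK and from 29700806 to 38556669 in HPC7, so 3 counts in a library stand for 0.0778 to 0.315 CPM (counts scaled to the library total). Mitochondrially encoded genes held 1.74 to 2.73% of counts. HPCLSK Y640F replicate 1 stood apart from its group, with chi-square values over their degrees of freedom of 23.02 and 29.37 against the other 2, which differed from each other by 3.49. Pairs in the other 3 groups ranged from 3.34 to 6.81. Empty vector pairs, outside the fit, ranged from 2.61 to 11.47 in HPCLSK and from 11.13 to 21.93 in HPC7. The progenitor markers Kit, Cd34, Gata2, Runx1, Tal1, Lmo2, Myb and Meis1 were present in all 4 groups, and Ly6a was near the floor in HPC7 STAT3, at 0.426, 0.269 and 0.235 CPM.

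Line differences were frequent. Calls required an adjusted p under 0.05 (edgeR quasi-likelihood test, Benjamini-Hochberg over all genes tested) together with a log2 value of at least 1 in either direction. By that rule 618 genes had a positive line difference (4.46% of those tested) and 1124 a negative one (8.12%), together 12.6%. The median over all genes was 0.00 and the median absolute value was 0.39. Within HPCLSK, 1138 genes rose (8.22%) and 882 fell (6.37%) with Y640F, 14.6% in all. Within HPC7, 779 rose (5.62%) and 226 fell (1.63%), 7.26% in all. By the adjusted p alone, 46.9% of genes passed for the line difference, 54.9% in HPCLSK and 44.2% in HPC7. These contrasts are the parts from which the line difference is built and lend it no separate support. With HPCLSK Y640F replicate 1 left out, 578 genes were called positive and 1090 negative.

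Most called genes changed in 1 line only by the call rule. Of the 1742, 788 (45.2%) were called in HPCLSK alone, 393 (22.6%) in HPC7 alone and 391 (22.4%) in neither. In 72 (4.13%) both lines were called in the same direction with different sizes. Another 98 (5.63%) were called with opposite signs, 22 up in HPCLSK with down in HPC7 and 76 the other way round. Empty vector levels, from libraries with the uneven spread given above, also placed the genes. Of 450 line-difference genes that rose in HPCLSK, the HPCLSK empty vector lay nearer to STAT3 in 393 and nearer to Y640F in 57. Of 455 that rose in HPC7, the HPC7 empty vector lay nearer to STAT3 in 197 and nearer to Y640F in 258, so for these the STAT3 group was often the one farther from empty vector. Of those that fell, the empty vector lay nearer to STAT3 in 422 of 508 in HPCLSK and in 78 of 108 in HPC7.

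**Figure D1:**
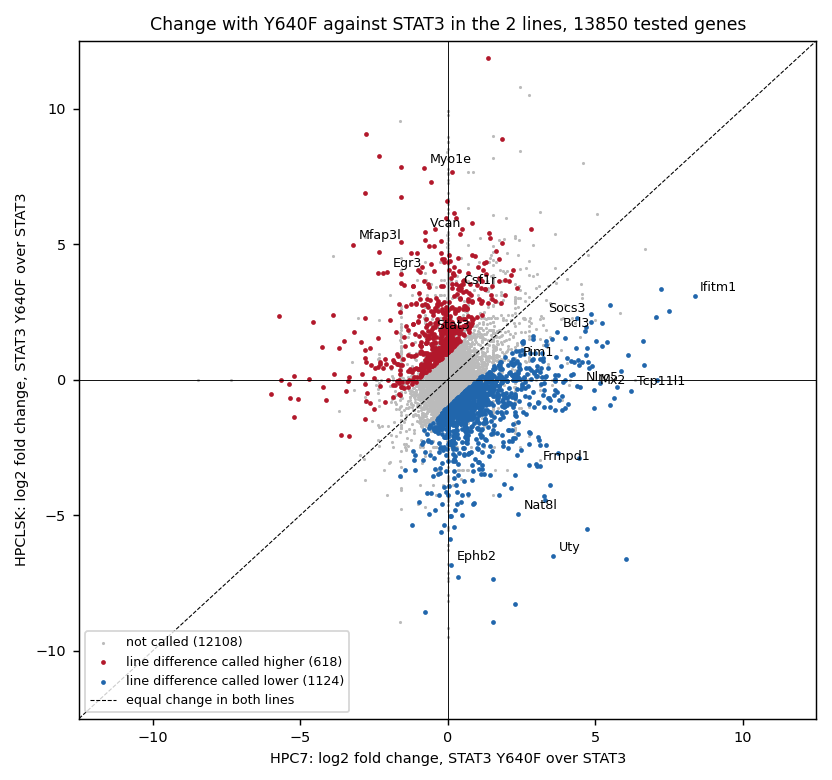
Log2 fold change of Y640F over STAT3 in HPCLSK (vertical) against that in HPC7 (horizontal) for the 13850 tested genes. Red points are the 618 genes with a called positive line difference, blue points the 1124 with a called negative one, and the dashed line marks equal change in both lines; many points lie near one axis.

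Stat3 itself differed between the lines (gene at chr11:100885098-100939540, minus strand). It had 1859, 1894 and 1948 CPM in HPCLSK Y640F, against 600.1, 556 and 640.1 CPM in HPCLSK STAT3. In HPC7 it had 693, 654 and 659.6 CPM with Y640F, against 1004, 1007 and 976 CPM with STAT3. Within each line the libraries did not overlap, and the order of the groups was opposite: Y640F was above STAT3 in HPCLSK and below it in HPC7. The log2 fold change was 1.67 ± 0.05 (SE) in HPCLSK and -0.56 ± 0.05 in HPC7, giving a line difference of 2.23 ± 0.07 (adjusted p = 4.5e-11). Empty vector libraries had 365, 340.5 and 358 CPM in HPCLSK and 223, 236 and 216 CPM in HPC7. The counts do not separate vector-derived from endogenous Stat3 reads. The line and the relative level of Stat3 RNA therefore cannot be told apart in any result that follows.

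Of 36 tested STAT3 and cytokine-response targets, 6 had a positive and 5 a negative line difference, 30.6% beside 12.6% of all genes, with a median of 0.07 beside 0.00. In HPCLSK 20 rose and 2 fell, and in HPC7 10 rose and 2 fell. Socs3, the feedback inhibitor that blocks JAK kinases, had 182, 185 and 220.2 CPM in HPCLSK Y640F, against 35.3, 44.1 and 41.4 CPM in HPCLSK STAT3. The HPC7 libraries had 16.3, 14.9 and 15.8 CPM with Y640F, against 1.77, 1.75 and 1.48 CPM with STAT3. It rose in both lines with no overlap, by 2.28 ± 0.09 and 3.23 ± 0.13 on the log2 scale. Its line difference was -0.96 ± 0.17 (adjusted p = 0.00032), just short of the fold rule. Leaving out HPCLSK STAT3 replicate 1 or HPCLSK Y640F replicate 3 took it to -1.04 and -1.05, past that rule.

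Bcl3, an atypical IkB protein, rose in both lines and more in HPC7. It had 92.7, 86.4 and 83.3 CPM in HPCLSK Y640F, against 25.2, 29 and 23.3 CPM in HPCLSK STAT3. In HPC7 the levels were 14.8, 12 and 12.7 CPM with Y640F, against 1.25, 0.833 and 0.941 CPM with STAT3. The line difference was -1.97 ± 0.18 (adjusted p = 1.4e-06), although the level in HPCLSK was the higher one throughout. Empty vector had 5.4, 6.58 and 5.1 CPM in HPC7, between HPC7 STAT3 and HPC7 Y640F. In HPCLSK it had 17.2, 21.9 and 21.6 CPM, below HPCLSK STAT3. Pim1, a survival kinase, had 385, 487 and 535 CPM in HPCLSK Y640F, against 287, 302 and 288 CPM in HPCLSK STAT3. In HPC7 the levels were 279.9, 246 and 263 CPM with Y640F, against 50.2, 53.6 and 50.3 CPM with STAT3. Here the HPC7 STAT3 libraries were the low ones, below HPC7 empty vector at 103, 113 and 104 CPM, and the line difference was -1.68 ± 0.13 (adjusted p = 2.1e-07). Its relative Pim2 showed the same form, with 147, 128 and 133 CPM in HPC7 Y640F, against 24.9, 26 and 24.3 CPM in HPC7 STAT3. Both HPCLSK groups of Pim2 lay between 13 and 14.6 CPM and overlapped (line difference -2.41 ± 0.10, adjusted p = 6.2e-10).

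Socs2, a growth hormone and STAT5 feedback gene, fell in HPCLSK. It had 0.269, 0.196 and 0.245 CPM in HPCLSK Y640F (12 counts), against 3.17, 5.27 and 5.37 CPM in HPCLSK STAT3. Its HPC7 levels were 5.2, 5.38 and 5.7 CPM with Y640F, against 6.15, 5.21 and 5.11 CPM with STAT3, which overlap (line difference -4.25 ± 0.34, adjusted p = 3.9e-07). Ccnd2, which encodes a G1 cyclin, fell in both lines and further in HPCLSK. It had 17.3, 31.1 and 23.8 CPM in HPCLSK Y640F, against 246, 240.4 and 235 CPM in HPCLSK STAT3. HPC7 libraries stood at 376, 386 and 375 CPM with Y640F, against 818, 804 and 842 CPM with STAT3. The log2 fold changes of Ccnd2 were -3.32 in HPCLSK and -1.11 in HPC7, and the line difference was -2.21 ± 0.16. Cish, a STAT5 target, was not called, with a line difference of -0.09 ± 0.17 (adjusted p = 0.73).

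The 6 targets with a positive line difference were Ccnd1, Nfil3, Il4ra, Mcl1, Junb and Hif1a, the last of which was not called without HPCLSK Y640F replicate 1 (0.91). Nfil3, a bZIP transcription factor, had 44.6, 37.1 and 37.3 CPM in HPCLSK Y640F, against 6.18, 7.08 and 5.37 CPM in HPCLSK STAT3. In HPC7 it stood at 14.1, 14.4 and 14.8 CPM with Y640F, against 11.4, 10.6 and 11.4 CPM with STAT3, so both lines separated but by 2.64 and 0.38 on the log2 scale. Mcl1, an anti-apoptotic BCL2 relative, had 1314, 1033 and 1086 CPM in HPCLSK Y640F, against 481, 524 and 479.9 CPM in HPCLSK STAT3. All 3 HPC7 Y640F libraries of Mcl1 (208, 207 and 215 CPM) lay below the 3 HPC7 STAT3 libraries (244, 243 and 241 CPM), and the line difference was 1.41 ± 0.10 (adjusted p = 1.2e-07). Ccnd1 was called with opposite signs. It rose by 1.30 in HPCLSK, where no library of either group passed 2 CPM. It fell by 1.22 in HPC7, where it had 389, 352 and 365 CPM with Y640F, against 881, 868 and 851 CPM with STAT3.

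**Figure D2:**
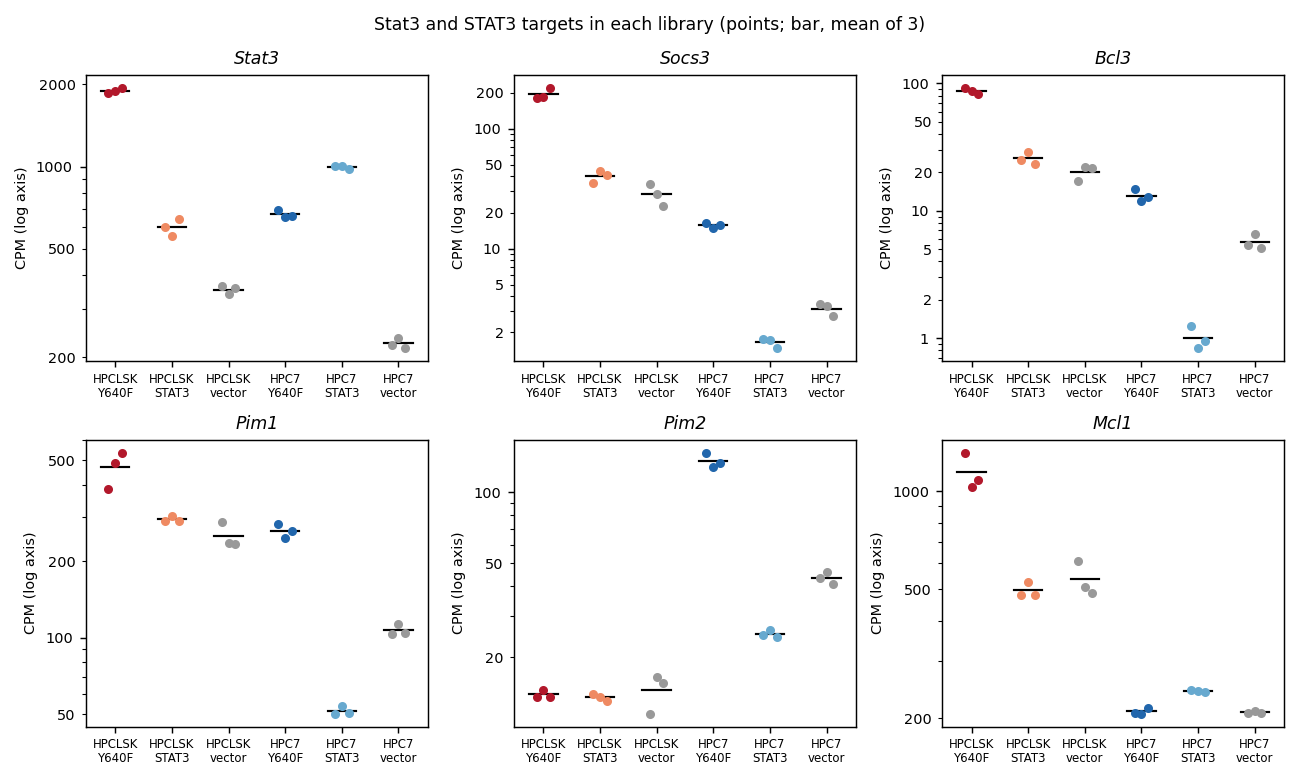
CPM of Stat3, Socs3, Bcl3, Pim1, Pim2 and Mcl1 in each library (points; log axis) with the mean of 3 as a bar, for Y640F, STAT3 and empty vector of HPCLSK and then of HPC7. Stat3 is higher with Y640F in HPCLSK and lower with Y640F in HPC7, Pim2 separates in HPC7 alone, and Mcl1 is above 1000 CPM in the HPCLSK Y640F libraries.

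The interferon-stimulated genes had the highest share of calls among the lists of at least 10 tested genes. Of 45 tested, 25 had a negative and 0 a positive line difference, 55.6% in all beside 12.6% of all genes (edgeR), and the median was -1.25 beside 0.00. In HPC7 30 rose and 0 fell, with a median of 2.19. In HPCLSK 15 rose and 2 fell, with a median of 0.60. The count of 25 was the same without HPCLSK Y640F replicate 1 and was 19 when the test itself asked for more than a 2-fold difference.

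Some of these genes changed in HPC7 and not detectably in HPCLSK. Bst2, a membrane tether that holds budding virus, had 50.8, 51.8 and 53.6 CPM in HPCLSK Y640F, against 46.3, 50.8 and 44.3 CPM in HPCLSK STAT3. In HPC7 it had 12.7, 7.53 and 7.87 CPM with Y640F, against 0.853, 0.806 and 1.14 CPM with STAT3. The HPCLSK groups touched and the HPC7 groups were far apart (line difference -3.19 ± 0.27, adjusted p = 5.1e-07). Mx2, an antiviral GTPase, had 11.7, 8.84 and 10.1 CPM in HPC7 Y640F, against 0.487, 0.108 and 0.403 CPM in HPC7 STAT3. All 6 HPCLSK libraries of Mx2 lay between 0.294 and 0.808 CPM and overlapped (line difference -5.34 ± 0.67, adjusted p = 2e-05). Sp100, a nuclear body protein, and Lgals3bp, a secreted glycoprotein, followed the same form, with log2 fold changes of 2.29 and 2.35 in HPC7 and -0.02 and 0.02 in HPCLSK. HPC7 empty vector had 2.28, 3.42 and 2.39 CPM of Bst2 and 1.89, 1.54 and 0.961 CPM of Mx2. These levels lay above HPC7 STAT3 and below HPC7 Y640F.

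A second set rose over STAT3 in both lines and further in HPC7. Isg15, a ubiquitin-like modifier, had 7.88, 7.44 and 8.32 CPM in HPCLSK Y640F, against 2.6, 3.28 and 1.96 CPM in HPCLSK STAT3. The HPC7 libraries had 15.3, 9.32 and 11.8 CPM with Y640F, against 0.914, 0.726 and 0.639 CPM with STAT3 (line difference -2.46 ± 0.33, adjusted p = 3.1e-05). The groups did not overlap in either line, and the lowest libraries were those of HPC7 STAT3. Ifitm3, which restricts viral entry, had 679, 691 and 649 CPM in HPCLSK Y640F, against 132, 149.8 and 123 CPM in HPCLSK STAT3. In HPC7 the levels were 70.2, 50.7 and 52.7 CPM with Y640F, against 0.64, 0.376 and 0.269 CPM with STAT3 (line difference -4.75 ± 0.27, adjusted p = 1.2e-08). The fold was larger in HPC7 and the level was higher in HPCLSK. Ifitm1 had a line difference of -5.29 ± 0.54, with 20.7, 15.6 and 18.1 CPM in HPC7 Y640F, against 0.0914, 0 and 0.0672 CPM in HPC7 STAT3 (5 counts). In HPCLSK, Ifitm1 reached 1924, 2414 and 2409 CPM with Y640F, against 257, 311 and 232 CPM with STAT3. HPC7 empty vector had 1.23, 2.39 and 1.95 CPM of Ifitm1, above HPC7 STAT3. HPCLSK empty vector had 128, 155 and 138 CPM of it, below HPCLSK STAT3. The larger fold in HPC7 is thus a fold over STAT3, and folds over empty vector were not tested here. The Oas genes, whose products sense double-stranded RNA, joined this set, with line differences of -4.94 for Oas1a, -3.91 for Oas2, -2.75 for Oas3 and -2.45 for Oasl2. Over the HPC7 STAT3 libraries Oas1a had 1 count, so its size is no measured fold, and Oas2 had 5. The Oas, Ifitm and Mx genes have close copies, among which the counting could divide reads, so single members are uncertain.

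Rsad2 and Usp18 fell in HPCLSK. Rsad2, the antiviral radical-SAM enzyme viperin, had 2.16, 4.24 and 2.4 CPM in HPCLSK Y640F, against 5.53, 6.7 and 4.95 CPM in HPCLSK STAT3. Its HPC7 levels were 30.7, 25.5 and 26.7 CPM with Y640F, against 3.99, 3.52 and 3.5 CPM with STAT3. It was called with opposite signs, at -1.02 ± 0.21 in HPCLSK and 2.92 ± 0.15 in HPC7 (line difference -3.94 ± 0.26, adjusted p = 5.6e-08). Usp18, the protease that removes ISG15, had 2.49, 3.2 and 2.49 CPM in HPCLSK Y640F, against 5.53, 7.65 and 6.71 CPM in HPCLSK STAT3, while the HPC7 libraries had 139, 113 and 115 CPM with Y640F, against 103, 101 and 107 CPM with STAT3.

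Among the transducers of the interferon route, Irf9 rose in HPC7 by 1.54 ± 0.09, and its line difference of -1.14 ± 0.13 was called. Irf7 rose in both lines, by 1.98 ± 0.24 in HPCLSK and 2.76 ± 1.06 in HPC7 (17 counts with Y640F and 2 with STAT3), and its line difference of -0.78 ± 1.02 was not called. Stat2 was not called either (-0.34 ± 0.08). Of 32 JAK-STAT components, 1 had a positive and 4 a negative line difference, with a median of -0.01. That is 15.6% in all, close to the 12.6% of all genes. The signal-sharing receptor chain Il6st rose in both lines, by 2.39 ± 0.14 in HPCLSK and 2.04 ± 0.18 in HPC7, with no called line difference (0.35 ± 0.24). The interleukin-6 binding chain Il6ra rose in HPC7, with 53.2, 54.7 and 50.5 CPM with Y640F, against 24.7, 23.8 and 26.7 CPM with STAT3, and its HPCLSK libraries overlapped between 191 and 243 CPM. Its line difference lay at the edge of the fold rule (adjusted p = 6.8e-06) and was not called in 6 of the 12 fits that left out 1 library.

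**Figure D3:**
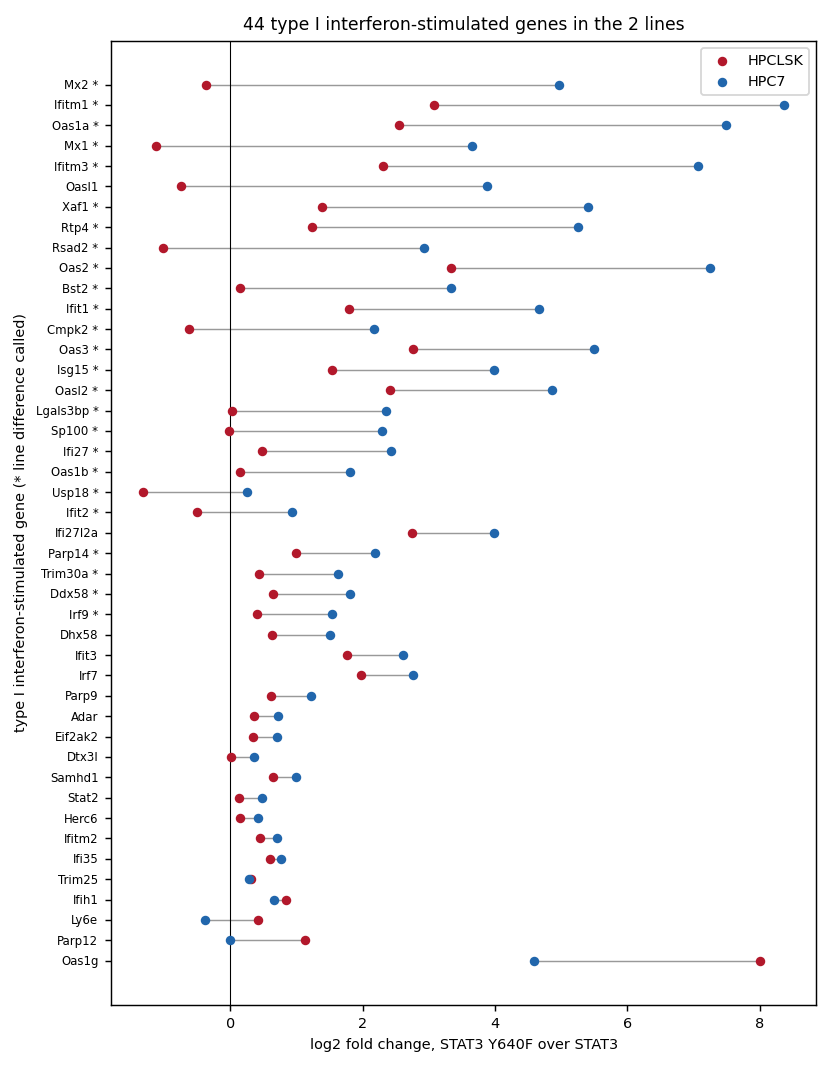
Log2 fold change of Y640F over STAT3 in HPCLSK (red) and HPC7 (blue) for the tested interferon-stimulated genes (1 of the 45 is not drawn), sorted by line difference, with an asterisk where it was called. In all 25 called genes the blue point lies to the right of the red one, with line differences from -1.14 (Irf9) to -5.34 (Mx2).

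The interferon element core was searched in the promoters of these genes, in the window from 250 bases upstream to 50 downstream of the start and on both strands. Of 32 tested interferon-stimulated genes with a promoter in the table, 15 held it (46.9%), and of 17 with a negative line difference 9 held it (52.9%). Over the 9964 tested genes with a promoter the share was 3.82%, and over all genes in the RefSeq table it was 3.99%. A gene was counted if any of its promoters held a match. The STAT palindrome TTCNNNGAA and its form with 4 middle bases were counted together, for genes with a promoter in the table. They were found in 16.4% of genes with a positive line difference, 16% of those with a negative one and 14.2% of all tested genes. Among STAT3 targets 10 of 28 genes held them (35.7%), and among interferon-stimulated genes 12 of 32 (37.5%). A match is a run of letters and was not tested as a binding site.

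Antigen-presentation genes of class I were called about as often as all genes. Of 22 tested, 3 had a negative and 0 a positive line difference (13.6% in all beside 12.6% of all genes). Nlrc5, the transactivator of class I genes, had 57.8, 63.5 and 57.5 CPM in HPCLSK Y640F, against 74, 68 and 72.9 CPM in HPCLSK STAT3. HPC7 libraries stood at 2.19, 1.17 and 1.1 CPM with Y640F, against 0.0305, 0.0269 and 0.134 CPM with STAT3 (6 counts), and 7.02, 10.7 and 9.46 CPM with empty vector. Its HPC7 groups did not overlap, and both lay under the empty vector (line difference -4.75 ± 0.48, adjusted p = 2.8e-06, or -5.70 without HPC7 STAT3 replicate 3). The peptide transporter Tap1 and the immunoproteasome subunit Psmb8 rose in HPC7 by 1.25 and 1.45, with line differences of -1.54 ± 0.12 and -1.32 ± 0.09. The class I light chain B2m was not called (-0.73 ± 0.16), with 1124, 931 and 776 CPM in HPCLSK Y640F, against 958, 1150 and 831 CPM in HPCLSK STAT3. Of 12 class II pathway genes 3 were called (25%). The peptide-loading gene H2-DMb1 was positive, and H2-DMa and H2-Oa were negative, each of these 2 at the edge of the fold rule and not called in at least 1 of the 12 fits that left out 1 library.

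Monocyte, macrophage and dendritic cell genes leaned the other way. Of 20 tested, 6 had a positive and 2 a negative line difference (40% in all), with a median of 1.15 beside 0.00 over all genes. In HPCLSK 16 rose and 2 fell, and in HPC7 4 rose and 1 fell. Csf1r, the receptor for macrophage colony-stimulating factor, had 1156, 608 and 586 CPM in HPCLSK Y640F, against 64.1, 124 and 34.9 CPM in HPCLSK STAT3. In HPC7 it stood at 5.63, 4.81 and 5.05 CPM with Y640F, against 3.62, 4.09 and 4.44 CPM with STAT3. The HPCLSK groups were far apart, with Y640F replicate 1 the highest, and the line difference was 2.98 ± 0.65 (adjusted p = 0.0017). Its ligand gene Csf1 rose in both lines, by 4.12 ± 0.23 and 3.65 ± 0.37, without a called line difference (0.47 ± 0.52).

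Itgax, the dendritic cell integrin CD11c, had 88.5, 18.7 and 25.1 CPM in HPCLSK Y640F, against 4.72, 6.7 and 3.92 CPM in HPCLSK STAT3, and replicate 1 was again the highest. HPC7 had 15.7, 14.5 and 16.5 CPM with Y640F, against 21.7, 20.3 and 20 CPM with STAT3 (line difference 3.42 ± 0.65, or 2.43 without HPCLSK Y640F replicate 1 and still called). Lysozyme Lyz2 had 7415, 5474 and 5224 CPM in HPCLSK Y640F, against 1316, 1623 and 877 CPM in HPCLSK STAT3, and under 9 CPM in every HPC7 library of these groups. The scavenger receptor gene Cd68 (2.52 ± 0.35) and the clotting factor subunit gene F13a1 (2.12 ± 0.46) were also positive. The chemokine receptor gene Ccr2 rose in both lines and further in HPC7 (line difference -1.15 ± 0.15).

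The summed level of the 28 monocyte-lineage genes was 7784.9 to 10641 CPM in HPCLSK Y640F and 1586.8 to 2689.3 CPM in HPCLSK STAT3. In HPC7 it was 183.63 to 188.08 CPM with Y640F and 124.01 to 127.42 CPM with STAT3. Lyz2 had the largest difference in HPCLSK. Without Lyz2 the sum was 2697.6 to 3858.7 CPM in HPCLSK Y640F, against 695.17 to 1062.4 CPM in HPCLSK STAT3. Replicate 1 of HPCLSK Y640F exceeded replicates 2 and 3 by a median log2 of 0.56 over the tested genes of this list, beside 0.00 over all genes. Without it, the same 6 genes of the list were called positive and the same 2 negative. In bulk RNA, more cells of a type and more RNA per cell cannot be told apart.

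Chemokine, cytokine and NF-kB genes were also mostly positive. Of 36 tested, 12 were positive and 4 negative (44.4% in all), with a median of 0.99. Without HPCLSK Y640F replicate 1, 9 were positive and 4 negative, and that library exceeded the other 2 by a median log2 of 0.40 over this list. The test against a 2-fold difference left 3 positive and 2 negative. Tnf, the inflammatory cytokine, had 40.8, 28.4 and 30.1 CPM in HPCLSK Y640F, against 4.72, 7.94 and 4.64 CPM in HPCLSK STAT3. In HPC7 it had 14.7, 15.7 and 15.2 CPM with Y640F, against 16.1, 17.4 and 18.2 CPM with STAT3. Tnf thus separated in HPCLSK, and in HPC7 the Y640F libraries lay just under the STAT3 ones (line difference 2.61 ± 0.23, adjusted p = 8.5e-07). Among subunits and inhibitors of NF-kB, Nfkb2 (1.69 ± 0.26), Relb (1.55 ± 0.42), Rel (1.11 ± 0.14), Nfkbia (1.02 ± 0.28) and Tnfaip3 (1.11 ± 0.30) were positive, of which Rel, Nfkbia and Tnfaip3 (0.98, 0.84 and 0.83) were not called without HPCLSK Y640F replicate 1, while Rela (0.47), Nfkb1 (0.29) and Nfkbib (0.31) were not called.

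Among the chemokines, Ccl3, Ccl4, Ccl6, Ccl9 and Cxcl2 were positive, and Ccl5 and Cxcl10 were negative. Of the 12 fits that left out 1 library, Ccl4 was not called in 1, Cxcl10 in 2 and Ccl6 in 4. Ccl4 had 22, 11.1 and 10.8 CPM in HPCLSK Y640F, against 0.325, 1.47 and 0.413 CPM in HPCLSK STAT3. Cxcl2, a neutrophil attractant, had 16.2, 6.4 and 9.15 CPM in HPCLSK Y640F, against 0.244, 0.808 and 0.103 CPM in HPCLSK STAT3, and 10 and 11 counts in the HPC7 groups. Its line difference of 4.65 ± 1.39 (adjusted p = 0.013) was not called without HPC7 STAT3 replicate 3 (3.76, adjusted p = 0.15). Ccl5, a T cell attractant that interferon also induces, had 9.13, 6.99 and 7.6 CPM in HPC7 Y640F, against 0.761, 0.672 and 0.706 CPM in HPC7 STAT3. In HPCLSK it had 2.43, 0.914 and 0.636 CPM with Y640F, against 1.46, 4.13 and 1.24 CPM with STAT3, which overlap (line difference -4.48 ± 0.60, adjusted p = 3.6e-05, or -3.58 without HPCLSK STAT3 replicate 2 and -5.25 without HPCLSK Y640F replicate 1). Lif, a cytokine of the interleukin-6 family, was negative at -2.52 ± 0.58 on 10 counts in HPC7 STAT3.

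Of 34 immediate-early and heat-shock genes, 11 were positive and 2 negative (38.2% in all), with a median of 0.56. In HPCLSK 17 rose and 1 fell, and in HPC7 0 rose and 2 fell. Egr3, a zinc-finger factor induced by receptor signalling, had 13.5, 7.12 and 7.78 CPM in HPCLSK Y640F, against 0.569, 0.665 and 0.516 CPM in HPCLSK STAT3. The HPC7 libraries had 1.08, 1.67 and 1.65 CPM with Y640F, against 6.76, 6.34 and 5.58 CPM with STAT3. The lines thus went in opposite directions, with no overlap in either (line difference 6.02 ± 0.40, adjusted p = 6.4e-08). Empty vector libraries of Egr3 were uneven in HPCLSK, at 2.97, 0.178 and 0.173 CPM, and had 6.48, 4.7 and 4.54 CPM in HPC7. Egr2 was called with opposite signs as well, at 1.69 ± 0.31 in HPCLSK and -1.11 ± 0.27 in HPC7. The AP-1 genes Fosl2 (2.14 ± 0.11), Junb (1.37 ± 0.16) and Fosl1 (1.63 ± 0.37) were positive, and Fos (0.83 ± 0.27) was not called. Klf2, a zinc-finger factor, had 22.3, 15.4 and 18.6 CPM in HPCLSK Y640F, against 2.03, 3.23 and 2.58 CPM in HPCLSK STAT3, and 5 and 12 counts in the HPC7 groups (line difference 4.03 ± 0.88). The 2 negative genes were the MAP kinase phosphatases Dusp6 (-1.37 ± 0.14) and Dusp2 (-1.12 ± 0.12, or -0.99 and not called without HPCLSK Y640F replicate 1). None of the tested heat-shock genes among them was called; Hspa1b was at 1.25 and Hsp90aa1 at -0.07.

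**Figure D4:**
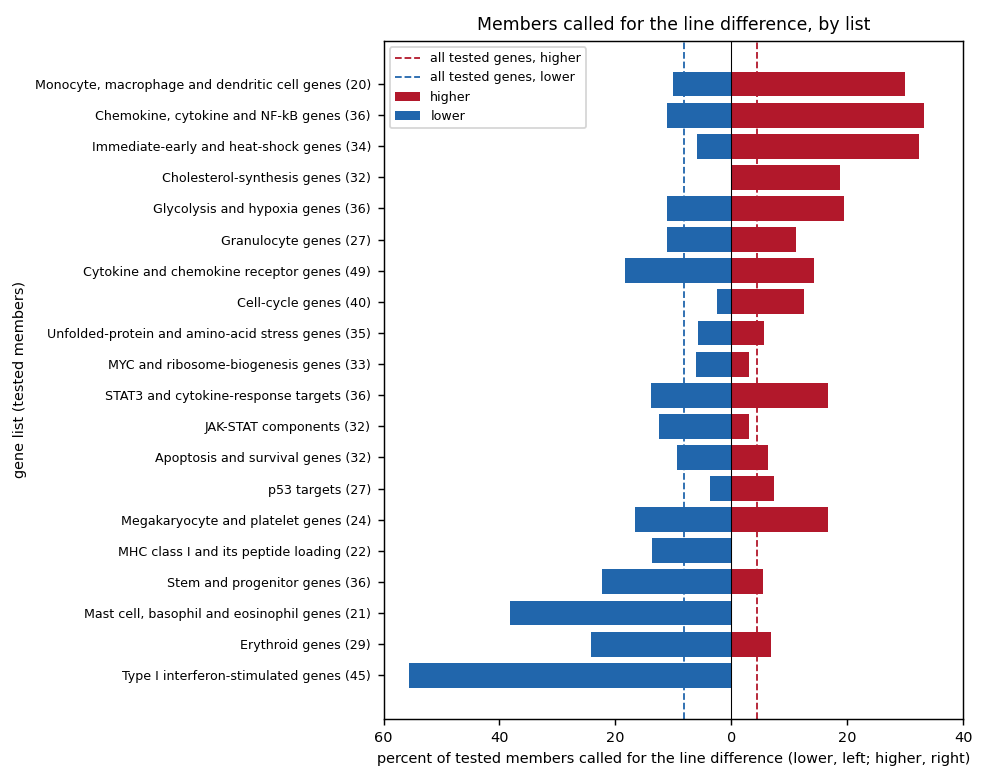
Percent of the tested members of each list with a called negative (blue, left) or positive (red, right) line difference, for the lists with at least 20 tested genes; the number tested is in brackets. Dashed lines mark all tested genes, 4.46% positive and 8.12% negative; interferon-stimulated genes reach 55.6% on the negative side.

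Stem and progenitor genes leaned negative. Of 36 tested, 2 were positive and 8 negative (27.8% in all), with a median of -0.37. In HPCLSK 5 rose and 5 fell, with a median of -0.08, and in HPC7 6 rose and 0 fell. Without HPCLSK Y640F replicate 1, 2 were positive and 7 negative. Over this list that library lay below replicates 2 and 3 by a median log2 of -0.25. Cd34, the surface sialomucin of progenitors, had 872, 1007 and 1068 CPM in HPCLSK Y640F, against 1656, 1809 and 1995 CPM in HPCLSK STAT3. In HPC7 the levels were 204, 177 and 198 CPM with Y640F, against 42.2, 40.7 and 40.6 CPM with STAT3, and 652, 619 and 555 CPM with empty vector. The lines went in opposite directions, and in HPC7 both groups lay under empty vector (line difference -3.13 ± 0.12, adjusted p = 2.8e-10). Kit, the receptor for the stem cell factor in the medium, had 224, 274 and 278 CPM in HPCLSK Y640F, against 618, 651 and 660.4 CPM in HPCLSK STAT3. Its HPC7 libraries ran from 1519 to 1609 CPM with Y640F and from 1470 to 1512 CPM with STAT3 (line difference -1.39 ± 0.09, adjusted p = 5.7e-08). Sox4, a progenitor transcription factor, fell in HPCLSK to 117, 133 and 125 CPM with Y640F, against 389.9, 412 and 438 CPM with STAT3 (line difference -2.02 ± 0.08). Ly6a, the antigen Sca-1, rose in both lines, by 4.58 ± 0.18 in HPCLSK and 4.77 ± 0.24 in HPC7, and its line difference of -0.19 ± 0.36 was not called.

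Mast cell, basophil and eosinophil genes were negative where called, 8 of 21 with 0 positive (38.1% in all), and the median was -0.42. In HPCLSK 6 rose and 5 fell, with a median of 0.09, and in HPC7 5 rose and 1 fell. Cpa3, the mast cell carboxypeptidase, had 589.9, 725 and 846 CPM in HPCLSK Y640F, against 2514, 2725 and 2551 CPM in HPCLSK STAT3. Its HPC7 levels were 451, 434 and 439 CPM with Y640F, against 362, 356 and 367 CPM with STAT3 (line difference -2.15 ± 0.13, adjusted p = 2e-08). It was low in the HPCLSK Y640F libraries, while in HPC7 the Y640F libraries were slightly the higher ones. Hdc, which makes histamine, was called with opposite signs, at -1.52 ± 0.12 in HPCLSK and 1.47 ± 0.43 in HPC7. Mitf, a mast cell transcription factor, rose in both lines and further in HPC7 (-2.07 ± 0.40). The summed level of the list was 3981.2 to 5039.4 CPM in HPCLSK Y640F, against 7278.8 to 7470.3 CPM in HPCLSK STAT3. In HPC7 it was 2743 to 2878.2 CPM with Y640F, against 2382.4 to 2452.2 CPM with STAT3. Cpa3 had the largest difference in HPCLSK. Without Cpa3 the sum was 3441.6 to 4231.2 CPM in HPCLSK Y640F, against 4718.9 to 4877.5 CPM in HPCLSK STAT3.

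Of 29 erythroid genes, 2 were positive and 7 negative (31% in all), and the median was -0.67, or -1.03 with 10 genes that had a group at 0 counts set at a bound of 3 counts. In HPC7 10 rose and 1 fell, and in HPCLSK 2 rose and 2 fell. The master regulator Gata1 had 22.4, 28.2 and 27.7 CPM in HPC7 Y640F, against 8.47, 9.97 and 8.03 CPM in HPC7 STAT3. All 6 HPCLSK libraries of Gata1 had between 0.783 and 2.01 CPM and overlapped (line difference -1.42 ± 0.37). Klf1, the erythroid Kruppel-like factor (-2.01 ± 0.72), and the erythropoietin receptor gene Epor (-1.46 ± 0.40) also rose in HPC7, with 8 to 28 counts in each HPCLSK group and no call there. Klf1 was not called in 5 of the 12 fits that left out 1 library, and Epor not without HPCLSK STAT3 replicate 1. Aqp1, a water channel, was positive at 4.68 ± 1.00 on 1 count in HPC7 Y640F, against 0.457, 0.779 and 0.538 CPM in HPC7 STAT3, so its size is no measured fold. Car2, a carbonic anhydrase, was called positive at 2.22 ± 0.12: it rose in HPCLSK, and HPC7 had 1644, 1689 and 1574 CPM with Y640F, against 3164, 3096 and 3287 CPM with STAT3.

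The summed level of 38 erythroid genes in HPC7 was 3788.6 to 3855 CPM with Y640F, against 5282.3 to 5483.1 CPM with STAT3. Car2 held most of that difference, and without it the sum was 2118.9 to 2155.1 CPM with Y640F, against 2184.1 to 2210.9 CPM with STAT3. In HPCLSK it was 1545.4 to 1684 CPM with Y640F, against 1921.9 to 1994.6 CPM with STAT3, and 13 and 14 of the genes were at 0 counts. The part of such cells in the results was not tested.

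Granulocyte genes were divided, with 3 positive and 3 negative of 27 (22.2% in all beside 12.6% of all genes). The secondary granule gene Ltf had 3.03, 5.55 and 7.29 CPM in HPCLSK Y640F, against 148, 92.5 and 54.6 CPM in HPCLSK STAT3. HPC7 libraries stood at 1.41, 1.49 and 1.37 CPM with Y640F, against 2.1, 1.96 and 2.42 CPM with STAT3 (line difference -3.60 ± 0.61, adjusted p = 0.00026). The collagenase gene Mmp9 (3.35 ± 0.65) and the oxidase subunit gene Ncf1 (2.67 ± 0.20) were positive. S100a8, an alarmin, had 4788, 4047 and 5054 CPM in HPCLSK Y640F, against 2234, 1665 and 1120 CPM in HPCLSK STAT3, but 1 and 4 counts in the HPC7 groups, and its line difference of 3.09 ± 2.97 was not called. The primary granule gene Mpo fell in both lines, at -1.27 ± 0.20 in HPCLSK and -1.09 ± 0.21 in HPC7. The summed level of the list was 20743 to 23241 CPM in HPCLSK Y640F and 17081 to 25187 CPM in HPCLSK STAT3. It was 281.08 to 304.2 CPM in HPC7 Y640F and 425.24 to 448.36 CPM in HPC7 STAT3. Both comparisons depended on Mpo. Without Mpo the sum was 16276 to 18263 CPM in HPCLSK Y640F, against 7299.5 to 12427 CPM in HPCLSK STAT3. In HPC7 the sum without Mpo was 162.01 to 164.1 CPM with Y640F, against 166.36 to 169.62 CPM with STAT3.

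Megakaryocyte and platelet genes had 4 positive and 4 negative of 24 (33.3% in all beside 12.6% of all genes). Selp, the platelet adhesion receptor P-selectin, had 17.4, 27 and 25.4 CPM in HPCLSK Y640F, against 1.63, 1.71 and 1.86 CPM in HPCLSK STAT3, with HPC7 between 5.11 and 6.5 CPM in both groups (3.66 ± 0.25). Vwf (2.86 ± 0.59) and Cd9 (2.09 ± 0.23) were also positive, while the integrin gene Itgb3 (-1.44 ± 0.06) was negative. Of 27 T and natural killer genes 8 passed the filter, and 1 was positive and 3 negative (50% of those tested). Their summed level was 18.609 to 37.946 CPM in HPCLSK Y640F, against 270.71 to 298.6 CPM in HPCLSK STAT3, and 68.912 to 73.87 CPM in HPC7 Y640F, against 71.521 to 72.947 CPM in HPC7 STAT3. The HPCLSK difference was nearly all Nkg7, a granule membrane protein gene, with 13.2, 29.9 and 31.7 CPM in HPCLSK Y640F, against 292, 264 and 271 CPM in HPCLSK STAT3. Without Nkg7 the sum was 6.53 to 8.35 CPM in HPCLSK Y640F and 5.35 to 6.67 CPM in HPCLSK STAT3. Cd4 was at 0 counts in HPCLSK Y640F and 3 in HPCLSK STAT3. In HPC7 it stood at 2.68, 2.87 and 3.9 CPM with Y640F, against 0.183, 0.269 and 0.403 CPM with STAT3. The line difference of Cd4 (-7.35 ± 1.88) was not called without HPCLSK STAT3 replicate 2 (-6.81, adjusted p = 0.071). Prf1, the perforin gene, was at 0 and 5 counts in the HPCLSK groups, and HPC7 had 11.8, 10.7 and 11 CPM with Y640F, against 6.18, 5.97 and 6.59 CPM with STAT3. Tek, a receptor of stem and endothelial cells, rested on 2 to 3 counts in 3 of the groups, and its call (-4.96 ± 1.61) was lost without HPC7 Y640F replicate 1 (-4.89, adjusted p = 0.056) or replicate 2 (-4.93, adjusted p = 0.054).

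Cytokine and chemokine receptor genes had 7 positive and 9 negative of 49 (32.7% in all). Il1r2, the interleukin-1 decoy receptor whose promoter stretch is printed above, had 60, 66 and 76.9 CPM in HPCLSK Y640F, against 3.74, 2.42 and 1.24 CPM in HPCLSK STAT3. In HPC7 it had 3.08, 3.65 and 2.92 CPM with Y640F, against 1.04, 0.941 and 1.11 CPM with STAT3. It rose in both lines without overlap and further in HPCLSK (line difference 3.09 ± 0.33, adjusted p = 5e-06). Il4ra, the interleukin-4 receptor chain, behaved likewise, rising by 2.96 and 1.05. Csf2rb2, an interleukin-3 receptor chain gene of mice, rose in both lines and further in HPC7 (-1.20 ± 0.11).

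Metabolic genes leaned positive in the main fit. Of 36 glycolysis and hypoxia genes, 7 were positive and 4 negative (30.6% in all), with a median of 0.39. Without HPCLSK Y640F replicate 1, 5 were positive and 5 negative, so by counts the lean of this list was lost. That library exceeded the other 2 by a median log2 of 0.22 over the list. Slc16a3, a lactate exporter, had 267, 166 and 152 CPM in HPCLSK Y640F, against 17.6, 18.3 and 13.5 CPM in HPCLSK STAT3, with HPC7 between 0.7 and 1.92 CPM (line difference 4.20 ± 0.49, adjusted p = 1e-05). Aldoc, a glycolytic aldolase, had 73.8, 77.5 and 110.2 CPM in HPCLSK Y640F, against 11.2, 14.4 and 12 CPM in HPCLSK STAT3, and 18 and 37 counts in the HPC7 groups (3.85 ± 0.59). The glucose carriers differed in sign, with Slc2a1 at 1.79 ± 0.21 and Slc2a3 at -2.68 ± 0.16. The oxygen sensor Egln1 rose in HPC7, with 53.1, 55.9 and 55.4 CPM with Y640F, against 10.6, 10.8 and 10.6 CPM with STAT3 (-2.07 ± 0.13). Of 32 cholesterol-synthesis genes, 6 were positive and 0 negative (18.8% in all), with a median of 0.51. They included Scd2, Fdps, Pmvk, Hmgcs1 and Srebf1, and Srebf1 was not called in 2 of the 12 fits that left out 1 library. In HPCLSK Y640F replicate 1 this list lay below the other 2 libraries by a median log2 of -0.45, and without that library 8 members were positive. None of the 6 passed the edgeR test against a 2-fold difference.

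Of 40 cell-cycle genes, 5 were positive and 1 negative, 15% in all and close to the 12.6% of all genes, with a median of 0.20. Beside the cyclins already given, the positive ones were E2f2, the cyclin E gene Ccne2 and the kinase inhibitor genes Cdkn2c and Cdkn2a. Cdkn2a was low in HPCLSK, with 41 counts with Y640F and 11 with STAT3. In HPC7 it was lower with Y640F, at 171, 159 and 154 CPM, against 279, 274 and 273 CPM with STAT3. The proliferation markers Mki67 (0.90) and Top2a (0.53) stayed under the fold rule. E2f2, an S-phase transcription factor, had 142, 118 and 130.2 CPM in HPCLSK Y640F, against 39.3, 33.3 and 28 CPM in HPCLSK STAT3, and in HPC7 28.6, 30.5 and 28.3 CPM with Y640F, against 20.6, 23.2 and 21.2 CPM with STAT3.

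The most positive line differences belonged to Myo1e, Mfap3l, Tie1, Vcan, Egr3 and Scamp5, among genes with at least 5 CPM in a group and at least 3 counts in each group. Myo1e, a membrane-bound myosin motor, had 46.7, 22.7 and 28.3 CPM in HPCLSK Y640F, against 0.325, 0 and 0.206 CPM in HPCLSK STAT3 (6 counts), with HPC7 between 0.475 and 1.02 CPM (8.61 ± 0.73, adjusted p = 6e-07). Tie1, an endothelial receptor kinase, had 4.99, 8.88 and 7.68 CPM in HPCLSK Y640F, against 3 counts in HPCLSK STAT3, with HPC7 between 344 and 366 CPM in both groups. Vcan, a matrix proteoglycan made by monocytes, had 117, 124 and 124 CPM in HPCLSK Y640F, against 2.93, 3.33 and 1.65 CPM in HPCLSK STAT3, and 4 and 7 counts in the HPC7 groups. Scamp5, a vesicle membrane protein, had 9.16, 7.83 and 9 CPM in HPCLSK Y640F, against 5 counts in HPCLSK STAT3. These genes separated in HPCLSK, and apart from Scamp5 (0.23 ± 0.07 in HPC7) their HPC7 groups differed by adjusted p values of 0.16 to 0.92 for Myo1e, Vcan and Tie1. Mfap3l was called with opposite signs (4.98 ± 0.99 and -3.21 ± 0.81), and its HPCLSK Y640F libraries were uneven, at 23.4, 3.33 and 2.74 CPM. Without replicate 1 the line difference of Mfap3l was 6.52, against 8.19 with it, and was still called.

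Among the most negative line differences were those of Uty, Nat8l, Ephb2, Tcp11l1 and Frmpd1. Frmpd1 was called with opposite signs. It had 0.741, 0.588 and 0.44 CPM in HPCLSK Y640F (29 counts), against 3.82, 5.75 and 6.19 CPM in HPCLSK STAT3. In HPC7 the levels were 4.88, 4.75 and 4.3 CPM with Y640F, against 0.396, 0.618 and 0.672 CPM with STAT3 (56 counts). The low groups were HPCLSK Y640F and HPC7 STAT3, with no overlap in either line, and the log2 fold changes were -3.18 ± 0.26 in HPCLSK and 3.04 ± 0.22 in HPC7 (line difference -6.22 ± 0.34, adjusted p = 9.1e-09). Ephb2, an ephrin receptor, fell in HPCLSK, to 0.135, 0.326 and 0.342 CPM with Y640F, against 28.7, 29.2 and 39.7 CPM with STAT3, and HPC7 lay between 14.7 and 16.8 CPM. Nat8l, an N-acetyltransferase, fell in HPCLSK and rose in HPC7 (-7.35 ± 0.32). Tcp11l1 rose in HPC7, with 10.2, 7.17 and 8.4 CPM with Y640F, against 11 counts with STAT3, and had 16.8 to 30.5 CPM in HPCLSK (-6.64 ± 0.33).

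Uty, a Y-linked histone demethylase relative, had 0.337, 0.326 and 0.147 CPM in HPCLSK Y640F (13 counts), against 25.9, 22.3 and 24.1 CPM in HPCLSK STAT3. Its HPC7 levels were 34.6, 36.8 and 38.3 CPM with Y640F, against 2.98, 3.09 and 3.23 CPM with STAT3, and 30, 28 and 34.4 CPM with empty vector. The HPCLSK empty vector was at 2.23, 0.891 and 0.982 CPM. Ddx3y and the translation factor gene Eif2s3y were low in HPC7 STAT3 but not in HPCLSK Y640F. Ddx3y, an RNA helicase, had 146, 135 and 133 CPM in HPCLSK Y640F, against 158, 143 and 153 CPM in HPCLSK STAT3. HPC7 libraries stood at 112, 118 and 124 CPM with Y640F, against 13, 12.2 and 11.6 CPM with STAT3, and 112, 120.4 and 123 CPM with empty vector (line difference -3.41 ± 0.08, adjusted p = 8.2e-12). Over the 8 tested Y genes the median line difference was -2.82, and 4 were called negative. The labels do not say whether a group is 1 clone or a separately kept culture, so such a difference between cultures and the STAT3 variant cannot be told apart.

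Chromosome 2 also lay away from the rest. Over its 1097 tested genes the median line difference was -0.35, with 25.1% above 0, and 129 genes were called negative and 30 positive (14.5% in all beside 12.6% of all genes). The median change in HPC7 was 0.42 and in HPCLSK 0.03. On the other chromosomes, apart from Y, the median line difference was -0.13 to 0.17. In 334 blocks of about 40 neighbouring genes, 27 had a median of -0.3 or less, and 20 of these were among the 27 blocks of chromosome 2. The shift did not reach its end: HPC7 medians were 0.01, -0.03 and -0.19 in blocks 25, 26 and 27, from base 166566342. In the blocks before, they were 0.33 to 0.61. Stretches elsewhere also lay high in HPC7. Block medians were 0.42 and 0.31 at the end of chromosome 12, 0.31 and 0.32 within chromosome 19, and 0.34, 0.31 and 0.33 at the end of X. Tcp11l1, Hdc, Vim, Trib3, Dusp2 and B2m lie on chromosome 2, so their values stand beside this shift. With the chromosome median subtracted before the fold rule, 606 genes were called positive and 1091 negative, and Ddx3y, less the median of the Y genes, was at -0.59.

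**Figure D5:**
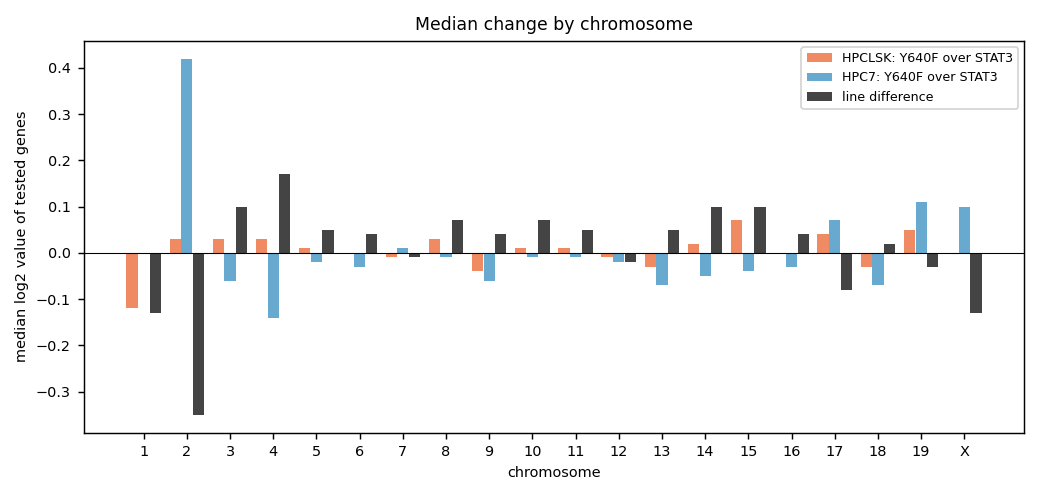
Median log2 value of tested genes on each chromosome for Y640F over STAT3 in HPCLSK (orange), in HPC7 (blue) and for the line difference (black); the Y chromosome (8 tested genes) and the mitochondrial genome (14) are not drawn. Chromosome 2 stands out, at 0.42 in HPC7 and -0.35 for the line difference.

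Low counts bear on part of the calls. Of the 1742 called genes, 177 (10.2%) had at least 1 group at or under 3 counts in total, and 69 (3.96%) had a group at 0. For those the fitted value depends on how the fit treats zeros and is no measured fold. Among genes with every group above that floor, 555 were called positive and 1010 negative.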

How the data were processed

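The 12 RNA libraries were compared from counts of reads per gene that the authors deposited unnormalized. Per the file headers, reads were counted over exons with featureCounts 1.5.1 at strand setting 2 against GENCODE M13. The submitters' processing notes name STAR, Trimmomatic and the build GRCm38 (mm10), and reads were single-end of 50 bp. For library preparation the series description and the protocols of single samples do not name the same kit, and which was used is not settled here. Symbols were matched by gene ID for 45737 genes with the version and 4639 without it; 310 had none and 136 shared one.

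The fit was edgeR 4.0.16 under R 4.3.3, with TMM normalization, filterByExpr, 1 factor of 4 groups, 8 residual degrees of freedom, the quasi-likelihood test and Benjamini-Hochberg adjustment over 13850 genes. CPM are scaled with TMM factors over all 18 RNA libraries, which moved them by at most 1.4% against the 12. Errors of log2 values are approximate standard errors, obtained as the absolute log2 value divided by the square root of the F statistic of the test. The procedure was tested on simulated data. Counts of 0 to 3 over a group were taken as the floor, which covers counting error only.

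The comparison, its members and the 26 gene lists were chosen with earlier results of these data known. Lists are described by counts and medians, without a test. Named genes followed a rule: Stat3, Socs3, Pim1, Bcl3 and Cish, the 6 most positive and 6 most negative called genes, the 4 with the strongest opposite changes, and up to 2 called members of a list. A few of the genes chosen this way are left out of the text. Other list members named, and the genes left out of marker sums, were chosen after their values were seen. Alternatives were DESeq2 1.42.0, its size factors in edgeR, other filters and call rules, thinned libraries, all 18 libraries, a replicate block and leaving out each library. No promoter was looked up outside the RefSeq table, and no protein sequence was used here.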

Additional observations from a re-analysis of the deposited data

Results flagged for a closer look

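For every result listed here the difference between the lines was itself tested, by the interaction contrast in edgeR with adjustment over all genes, and passed the call rule. The counts were 618 genes with a positive and 1124 with a negative line difference (log2 scale throughout).

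Among signalling genes, Stat3 was at 2.23, Pim1 at -1.68, Bcl3 at -1.97 and Socs2 at -4.25. Positive values on lists of monocyte, chemokine and immediate-early genes were Itgax 3.42, Cxcl2 4.65, Egr3 6.02 and Klf2 4.03. Positive values elsewhere were Myo1e 8.61, Mfap3l 8.19, Tie1 6.61, Vcan 6.22, Scamp5 5.94, Aqp1 4.68, Slc16a3 4.20, Aldoc 3.85, Selp 3.66 and the growth-arrest gene Gadd45a 3.39. Gadd45a had 22.6, 20.8 and 21.7 CPM in HPCLSK Y640F, against 15.9, 14.4 and 11.5 CPM in HPCLSK STAT3, and 2 counts in HPC7 Y640F, against 16 in HPC7 STAT3; its line difference was 5.63 without HPC7 Y640F replicate 2.

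Negative values among interferon-related genes were Mx2 -5.34, Ifitm1 -5.29, Nlrc5 -4.75 and Ccl5 -4.48. Further negative values were Uty -10.09, Nat8l -7.35, Cd4 -7.35, Ephb2 -6.97, Tcp11l1 -6.64, Frmpd1 -6.22, Prf1 -5.42, Tek -4.96, Ltf -3.60 and Ddx3y -3.41. For Cd4, Prf1, Tek, Aqp1, Gadd45a and Tie1 at least 1 group had 0 to 3 counts, so their size is not a measured fold.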

How the results depend on the processing

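Of 132 counts of genes recomputed under 22 settings, 114 lay within 1.5 times the reported count, and the other 18 came from 3 settings. With a filter of mean 5 CPM the line difference gave 380 positive and 564 negative genes, HPCLSK 561 higher and 297 lower, and HPC7 380 higher and 107 lower. With the adjusted p alone the counts were 3269 and 3228, 4027 and 3578, and 3145 and 2971. With a test against a 2-fold difference they were 251 and 438, 715 and 375, and 358 and 83. The fewer genes tested in the first and the changed rule in the other 2 are part of their construction. Leaving out 1 library gave 566 to 647 positive and 1065 to 1151 negative line differences, 1086 to 1203 higher and 831 to 939 lower in HPCLSK, and 716 to 859 higher and 205 to 247 lower in HPC7. Libraries thinned to the smallest total gave 483 and 858, DESeq2 677 and 1087. Labels share replicate numbers, but same-numbered libraries did not deviate together (correlations of -0.086 to 0.095 in HPCLSK and -0.112 to -0.036 in HPC7). So few pairs showed no pairing but cannot exclude that same-numbered libraries were prepared together. With the replicate block 593 were positive and 1077 negative.

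Of 819 values of named genes under these settings 801 stayed on their side of the call rule, 14 lost the call, 4 (all Socs3, at -0.96 to -1.05) gained it and 0 changed sign. Of the 36 called named genes 29 were called under every setting that gave a value. The call was lost at least once for 7, among them Cd4, Tek, Cxcl2, Klf2, Gadd45a and Ddx3y. Depth limits genes below about 0.315 CPM.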

Other observations

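Apoptosis and survival genes had 2 positive and 3 negative line differences of 32 tested (15.6% beside 12.6% of all genes). Bcl2, the anti-apoptotic founder of its family, had 29, 36.2 and 37 CPM in HPCLSK Y640F, against 101, 87.6 and 98.5 CPM in HPCLSK STAT3. In HPC7 it had 48.9, 49.1 and 52.5 CPM with Y640F, against 59.7, 60 and 61.4 CPM with STAT3 (line difference -1.22 ± 0.11), so it went the other way from Mcl1 in HPCLSK. The death ligand Tnfsf10 and its receptor Tnfrsf10b were also negative, at -1.14 ± 0.19 and -1.75 ± 0.35.

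Of 35 stress genes 2 were positive and 2 negative, 11.4% and close to the share of all genes. Ddit3, the stress factor CHOP, had 25, 23.6 and 23 CPM in HPC7 Y640F, against 8.59, 8.9 and 8.87 CPM in HPC7 STAT3, while its HPCLSK libraries overlapped between 14.2 and 16.1 CPM (line difference -1.53 ± 0.10). Trib3, a pseudokinase that Ddit3 induces, rose in HPC7, to 20.8, 17.1 and 17.3 CPM with Y640F, against 2.41, 1.61 and 1.58 CPM with STAT3 (-3.20 ± 0.51). Xbp1 and Edem1, of the unfolded-protein response, were positive at 1.12 ± 0.09 and 1.35 ± 0.12. Of 27 p53 targets 2 were positive and 1 negative (11.1%), and of 33 MYC and ribosome-biogenesis genes 1 was positive and 2 negative (9.09%), with Myc itself at -0.10 ± 0.18. The B-lymphoid list had 0 called of 6 tested and the mitochondrially encoded list 0 of 7. The stromal and endothelial list had 2 negative of 9 (22.2%), Vim and Pdgfrb.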
